A study of Mus musculus with 12 samples.

Results

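Circular RNAs (circRNAs) made from genes that themselves process RNA were examined in 4 mouse cell lines with 3 libraries each. The hosts were chosen by symbol alone: circRNAs with a single named host whose symbol belongs to the Rbm, Ddx, Dhx, Srsf, Hnrnp, Cpsf, Cnot, Xrn, Prpf, Snrnp, Upf or Smg families. In the table of the mammary lines 184 of 9492 circRNAs and 73 of 3617 single-host genes met this rule, all with reads. In the table of the melanocytic lines 232 of 12910 circRNAs met it, of which 164 had reads, and 63 of the 74 hosts had reads among 3414 single-host genes with reads. Together the tables held 76 such hosts, 60 of them with reads in both, and 236 such circRNAs with reads, 112 of them with reads in both.

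The lines were 4T1, a breast cancer line, set against Eph4-ev, breast epithelial cells, and B16F10, a melanoma line, set against Melan-a, melanocytes. No treatment or genotype is labelled, and each side of a comparison is a single line, so a difference due to tumour state and any other difference between the paired lines cannot be told apart. Total RNA had been treated with RNase R, which removes linear RNA, and reads across back-spliced junctions, the joins that close a circle, were counted. A library held 15572 to 44625 junction reads in 4T1, 50648 to 56649 in Eph4-ev, 16697 to 20011 in B16F10 and 25072 to 33557 in Melan-a. Levels are given as RPM, the junction reads of a circle or host scaled to the total of its library, so 1 read stood for 64.2 RPM in 4T1 replicate 1 and 17.7 RPM in Eph4-ev replicate 2. In such bulk libraries, fewer cells carrying a circRNA and less of it per cell cannot be told apart, and the linear RNA of the hosts was not measured. CircRNAs of 9 of 12 melanocyte marker genes had reads in B16F10 and of 10 of 12 in Melan-a, against 0 in 4T1 and 1 in Eph4-ev. Of 12 epithelial markers, 4 had circRNA reads in both 4T1 and Eph4-ev, against 0 in B16F10 and 1 in Melan-a.

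Back-splicing joins the end of an exon to the start of the same or an earlier exon, and the spliceosome that joins exons in line also carries it out. Splicing factors of the hnRNP, SR and RBM families bind pre-mRNA and are known to raise or lower the circularisation of particular exons. DEAD and DEAH box helicases remodel RNA and RNA-protein complexes. The Cpsf proteins are parts of the factors that cut pre-mRNA at its 3′ end or help to choose the site. The Cnot proteins form the CCR4-NOT complex that shortens poly(A) tails, and the Xrn enzymes degrade RNA from its 5′ end. The Upf and Smg proteins carry out nonsense-mediated decay, which removes mRNAs with early stop codons. Circles lack the free ends that exonucleases need. What is described here are circles made from the genes of these proteins, not the activity of the proteins.

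The joins of 13 circRNAs described below are given here. They show which exon ends meet and which circles of a host share one side of the join. Each runs 5′ to 3′ on the strand of the host, with the end of the last exon of the circle in lower case and the start of its first exon in capitals, 30 bases on either side where both sides are coding and 15 otherwise. The sequences are from GENCODE M21 transcripts (GRCm38, which is mm10), whose exon numbers are used.
Dhx15 exons 2 to 3: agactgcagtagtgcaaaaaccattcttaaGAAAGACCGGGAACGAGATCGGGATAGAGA
Cnot6l exons 2 to 4: ctctaggtttaacagACTAATAGGGATGCC
Cnot6l exons 2 to 5: ttgacaatcttgcagACTAATAGGGATGCC
Cnot6l exons 6 to 8: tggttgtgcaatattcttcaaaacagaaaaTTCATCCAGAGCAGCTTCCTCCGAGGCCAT
Cpsf6 exons 2 to 9: cgtcatcgttagaagGAAGCAGAATATGGT
Cpsf6 exons 2 to 3: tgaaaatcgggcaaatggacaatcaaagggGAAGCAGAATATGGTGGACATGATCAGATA
Cnot2 exons 2 to 4: tatacgggcaacaaaAGGGAGAACTGGTGG
Cnot2 exons 2 to 3: cggtcagagaaagatAGGGAGAACTGGTGG
Xrn2 exons 3 to 5: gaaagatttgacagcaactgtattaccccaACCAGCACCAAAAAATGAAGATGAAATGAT
Snrnp200 exons 39 to 43: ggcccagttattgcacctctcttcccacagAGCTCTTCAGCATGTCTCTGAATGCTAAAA
Hnrnpll exons 2 to 7: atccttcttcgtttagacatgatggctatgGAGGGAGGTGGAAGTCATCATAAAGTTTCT
Rbm33 exons 8 to 9: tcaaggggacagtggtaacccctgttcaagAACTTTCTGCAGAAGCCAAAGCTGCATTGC
Rbm33 exons 8 to 10: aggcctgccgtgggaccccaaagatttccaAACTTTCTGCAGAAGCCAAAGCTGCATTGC

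The circles of Cnot6l that start at exon 2 share the capitals of the join and differ in the exon that closes on them, and the same holds for the pairs of Cpsf6, of Cnot2 and of Rbm33, which starts at exon 8. The Dhx15 circle lies at chr5:52180982-52184903 (minus strand) and holds 630 bases of coding sequence, a multiple of 3, so that the reading frame of the host runs through the join and meets no stop codon. The Rbm33 circle of exons 8 to 9 (498 bases, chr5:28358274-28362234, plus strand) has the same property. So does the Upf2 circle of exons 4 to 8 (696 bases, chr2:5973469-5988472, plus strand), whose join is not shown. In the other coding circles shown the frame of the host shifts at the join, and a stop codon follows after 10 codons in Cpsf6 exons 2 to 3, 7 in Hnrnpll, 6 in Snrnp200, 5 in Xrn2, 35 in Cnot6l exons 6 to 8 and 36 in Rbm33 exons 8 to 10, counted from the codon that spans or follows the join. The Cpsf6 circle of exons 2 to 9 holds the stop codon of its host, and the Cnot6l and Cnot2 circles that start at exon 2 begin in the 5′ UTR and run into the coding sequence. These are properties of the sequence, and no translation was measured.

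The circRNAs of these hosts were flanked by introns with shorter medians than those of circRNAs in general. In the mammary table the median intron before the circle was 3326 bases long and the median intron after it 2719 bases, against 8247 and 5601 bases for all single-host circRNAs. In the melanocytic table the medians were 3292 and 3086 bases, against 8255 and 6326 bases. The Xrn2 circle had introns of 79 and 75 bases on its sides, while those of the Cnot6l circle of exons 2 to 4 measured 27804 and 22637 bases. Median spliced lengths were 518 bases in the mammary and 507 bases in the melanocytic table, against 456 and 494 bases for all single-host circRNAs. The circle began at exon 2 of its transcript for 38.5% of these circRNAs in the mammary table and 36.0% in the melanocytic one, against 34.3% and 32.0% of all. It held the start codon of the host for 18.2% and 20.0%, against 15.8% and 15.6% of all. Introns and exons were matched for 179 of the 184 circRNAs of the mammary table, and none of these differences was tested.

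These hosts took a small part of all junction reads: 1.93% ± 0.0481 in 4T1, against 2.12% ± 0.120 in Eph4-ev, and 1.53% ± 0.123 in B16F10, against 1.61% ± 0.152 in Melan-a (SD, n = 3 each). The order of the means turned in both pairs when rows with several hosts were counted too, with 2.76% ± 0.121 in 4T1, against 2.71% ± 0.135 in Eph4-ev, and 1.83% ± 0.215 in B16F10, against 1.80% ± 0.150 in Melan-a. Circles listed under Rbm4 together with the overlapping Gm21992 stood outside the rule; the most abundant of them (chr19:4792398-4794009) had 101, 92 and 234 reads in 4T1, against 239, 266 and 257 in Eph4-ev, and was not called. The reads were unevenly spread over the hosts. The 5 most abundant hosts held 49.1% of the RPM of the whole set in 4T1 and 60.5% in Eph4-ev, and 56.5% in B16F10 and 58.5% in Melan-a. Circles of 11 hosts were read in all 12 libraries: Cnot2, Cnot6l, Cpsf6, Ddx17, Dhx15, Dhx9, Hnrnpll, Rbm26, Smg1, Upf2 and Xrn2.

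Circles of the deadenylation genes took the highest mean share in each of the 4 lines. They took 0.603% ± 0.0483 of junction reads in 4T1, against 0.833% ± 0.0902 in Eph4-ev, and 0.303% ± 0.0256 in B16F10, against 0.380% ± 0.0238 in Melan-a (SD, n = 3 each), and within each pair the libraries of the lines did not overlap. Hosts of 5′ to 3′ decay took 0.258% ± 0.0313 in 4T1, against 0.120% ± 0.0293 in Eph4-ev, again with no overlap, and 0.168% ± 0.0492 in B16F10, against 0.194% ± 0.0363 in Melan-a, where the libraries overlapped. Those of 3′ end processing took 0.153% ± 0.0371 in 4T1, against 0.300% ± 0.0437 in Eph4-ev, and 0.250% ± 0.0363 in B16F10, against 0.351% ± 0.104 in Melan-a. The helicases, the group with the most hosts, took 0.332% ± 0.0434 in 4T1, against 0.314% ± 0.0326 in Eph4-ev. No p is given for these sums over hosts, and single hosts weighed heavily in them. Cnot6l alone averaged 3418 RPM in 4T1, against 6184 RPM in Eph4-ev. Cnot2, the next most abundant deadenylation host there, lay the other way, at 1539 RPM in 4T1, against 1134 RPM in Eph4-ev. Of the 6 deadenylation hosts tested in the mammary lines, 2 had a log2 fold change above 0. In each line most reads of 5′ to 3′ decay were from Xrn2, and most of 3′ end processing from Cpsf6.

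**Figure D1:**
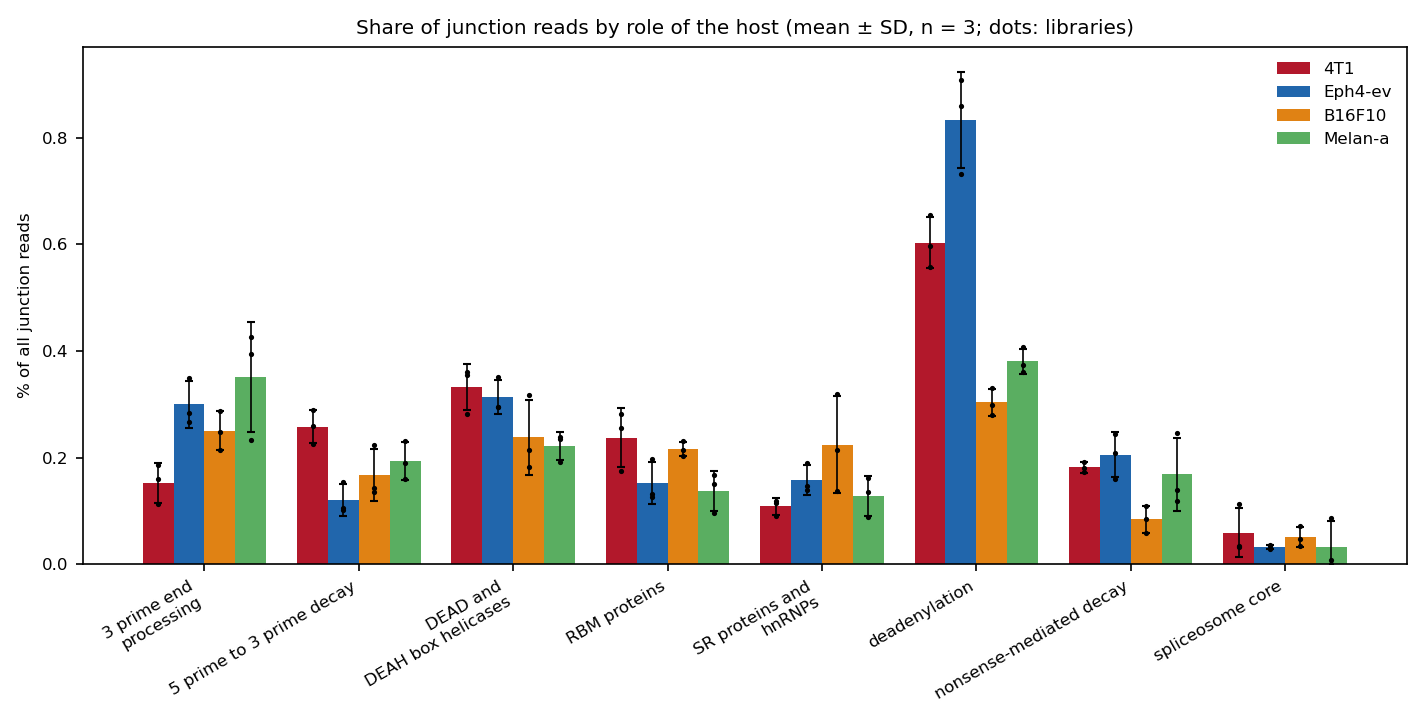
Share of all junction reads (%, y axis) taken by circRNAs of 8 groups of RNA processing hosts (x axis) in 4T1, Eph4-ev, B16F10 and Melan-a. Bars and whiskers are the mean and SD of 3 libraries and dots are libraries; deadenylation hosts stand highest, at 0.603% in 4T1 and 0.833% in Eph4-ev.

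Between the mammary lines, circles of 4 RNA processing hosts were lower in 4T1 than in Eph4-ev (Dhx15, Cnot6l, Cpsf6 and Upf2) and circles of 2 were higher (Snrnp200 and Xrn2). These are 4 and 2 of the 30 hosts with enough reads to be tested, or 13.3% and 6.67%, where 10.6% of all 1515 tested hosts were lower and 6.86% were higher (edgeR quasi-likelihood test, adjusted p under 0.05), so the hosts were called about as often as hosts in general. The median log2 fold change of the 30 was 0.38, against -0.09 over all tested hosts. Of the 30, 18 lay above 0, a count given here without its counterpart over all tested hosts. DESeq2 called 4 lower and 1 higher, where 9.83% of all were lower and 6.34% higher. Reads of the groups did not overlap, as RPM, for 5 hosts in each direction, or 16.7%, where 19.3% of all tested hosts lay wholly lower and 16.8% wholly higher.

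Among the deadenylation hosts, Cnot6l, a catalytic subunit of the CCR4-NOT deadenylase, gave the most abundant circles of the set in both mammary lines. It had 48, 64 and 159 reads in the 4T1 libraries, against 344, 297 and 362 in the Eph4-ev libraries. That was 3418 ± 292 RPM in 4T1, against 6184 ± 827 RPM in Eph4-ev (SD, n = 3 each), with every 4T1 library under every Eph4-ev library. The log2 fold change was -0.99 (SE 0.19, adjusted p = 0.00239), and the call held in all 13 alternative settings. Of its tested circles 1 passed the test. The circle of exons 2 to 4 (chr5:96128943-96134132) had 31, 41 and 114 junction reads in 4T1, against 317, 280 and 331 in Eph4-ev, a log2 fold change of -1.53 (SE 0.20, adjusted p = 0.000755), whereas the circle of exons 2 to 5 had 1, 11 and 37 junction reads in 4T1, against 20, 10 and 17 in Eph4-ev (log2 0.68, SE 0.70, adjusted p = 0.575), and that of exons 6 to 8 had 12, 12 and 8 junction reads in 4T1, against 4, 7 and 12 in Eph4-ev (log2 1.59, SE 0.72, adjusted p = 0.164). The exon 2 to 4 circle thus made up 64.6%, 64.1% and 71.7% of the Cnot6l reads in the 4T1 libraries and 92.2%, 94.3% and 91.4% in the Eph4-ev libraries, without overlap (exact permutation p = 0.1, two-sided, the smallest that 3 against 3 allows, and 0.257 after Benjamini-Hochberg adjustment over 9 such shares).

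Cnot2, a scaffold subunit of the same complex, did not pass the test as a host. It had 26, 32 and 51 junction reads in 4T1, against 55, 68 and 62 in Eph4-ev, which gave 1539 ± 350 RPM in 4T1, against 1134 ± 59.3 RPM in Eph4-ev (SD, n = 3 each; log2 0.26, SE 0.29, adjusted p = 0.596). Its circle of exons 2 to 4 (chr10:116517317-116549175) took 76.1% ± 9.71 of its reads in 4T1, against 54.8% ± 12.4 in Eph4-ev, with overlapping libraries. The 4 other tested deadenylation hosts, Cnot1, Cnot4, Cnot6 and Cnot7, did not pass the test.

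Cpsf6, a subunit of the cleavage factor that helps to choose poly(A) sites, was lower in 4T1. It had 22, 20 and 63 junction reads in 4T1, against 136, 189 and 143 in Eph4-ev, and 1317 ± 164 RPM in 4T1, against 2865 ± 412 RPM in Eph4-ev (SD, n = 3 each), with no overlap. The log2 fold change was -1.24 (SE 0.25, adjusted p = 0.00306), kept in all 13 alternative settings. Its circle of exons 2 to 9 (chr10:117355935-117367988) had 12, 4 and 30 junction reads in 4T1, against 108, 130 and 71 in Eph4-ev (log2 -1.94, SE 0.41, adjusted p = 0.0128, which becomes 0.0841 without Eph4-ev replicate 2). The circle of exons 2 to 3, which shares its start, had 6, 16 and 31 junction reads in 4T1, against 28, 57 and 65 in Eph4-ev and did not pass the test (log2 -0.67, SE 0.43, adjusted p = 0.344).

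Dhx15, a DEAH box helicase that takes spliceosomes apart after splicing, showed the steepest fall that passed the test. Its circles had 4, 3 and 9 junction reads in 4T1, against 71, 81 and 70 in Eph4-ev, or 209 ± 44.3 RPM in 4T1, against 1364 ± 91.0 RPM in Eph4-ev (SD, n = 3 each). Every 4T1 library lay far under every Eph4-ev library, and the log2 fold change was -2.83 (SE 0.42, adjusted p = 0.000296), called in all 13 alternative settings. Most of those reads were from the circle of exons 2 to 3 whose join is printed above, with 4, 3 and 6 junction reads in 4T1, against 53, 68 and 67 in Eph4-ev (log2 -2.92, SE 0.43, adjusted p = 0.00195). Of the 9 tested helicases only Dhx15 passed the test. The other 8 had log2 fold changes above 0, from 0.19 (SE 0.54) for Ddx17 to 1.86 (SE 0.98) for Ddx10, and none of them passed. These 9 were the testable ones of 21 helicase hosts with reads, so their directions do not stand for the family.

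In nonsense-mediated decay, Upf2, the bridge between Upf1 and Upf3 proteins, had 11, 8 and 22 junction reads in 4T1, against 57, 48 and 89 in Eph4-ev, or 550 ± 137 RPM in 4T1, against 1192 ± 382 RPM in Eph4-ev (SD, n = 3 each). The 4T1 libraries lay below the Eph4-ev libraries, with a log2 fold change of -1.27 (SE 0.39, adjusted p = 0.0373). Its call is among the less secure, since the adjusted p was 0.0612 when libraries were scaled by total reads, 0.157 when they were thinned to equal depth, and 0.0375 to 0.168 with 1 library left out, above the threshold without 4T1 replicate 2 or 3 or any of the Eph4-ev replicates. None of its circles was called. Smg1, the kinase that phosphorylates Upf1, had 9, 16 and 38 junction reads in 4T1, against 16, 17 and 8 in Eph4-ev, or 777 ± 174 RPM in 4T1, against 253 ± 95.01 RPM in Eph4-ev (SD, n = 3 each), without overlap. It did not pass the test (log2 1.49, SE 0.52, adjusted p = 0.0625), and passed it at 0.0405 with scaling by total reads, 0.0328 with a minimum count of 10 and 0.0276 with thinning. In the other 10 of 13 alternative settings Smg1 was not called.

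Snrnp200, the spliceosomal helicase that unwinds the U4 and U6 snRNA pair, had the larger fold change of the hosts called higher. Its single circle (exons 39 to 43, chr2:127237461-127238820) had 5, 5 and 32 junction reads in 4T1, against 0, 2 and 3 in Eph4-ev, so 440 ± 241 RPM in 4T1, against 29.8 ± 27.4 RPM in Eph4-ev (SD, n = 3 each). The host's log2 fold change was 3.67 (SE 0.95, adjusted p = 0.0150), and the circle's own was 3.59 (SE 0.94, adjusted p = 0.0251). The host had enough reads to be tested only through its 4T1 libraries, the side where it was higher. With so few reads the call rested on single libraries: the host's adjusted p became 0.178 without 4T1 replicate 3, 0.0654 without Eph4-ev replicate 1 and 0.123 without Eph4-ev replicate 2. Xrn2, the nuclear 5′ to 3′ exonuclease that helps to end transcription, had 45, 42 and 93 junction reads in 4T1, against 78, 58 and 56 in Eph4-ev, or 2447 ± 409 RPM in 4T1, against 1191 ± 303 RPM in Eph4-ev (SD, n = 3 each), with no overlap. Its log2 fold change was 0.88 (SE 0.28, adjusted p = 0.0389), but the call was lost in 7 of 13 alternative settings. DESeq2 gave 0.0540 and the fit with no filter 0.162. Leaving out 1 library gave 0.0453 to 0.193, above the threshold for all libraries but Eph4-ev replicate 1. Nearly all of its reads were from the circle of exons 3 to 5 (chr2:147024715-147026439), which on its own had an adjusted p of 0.0689.

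**Figure D2:**
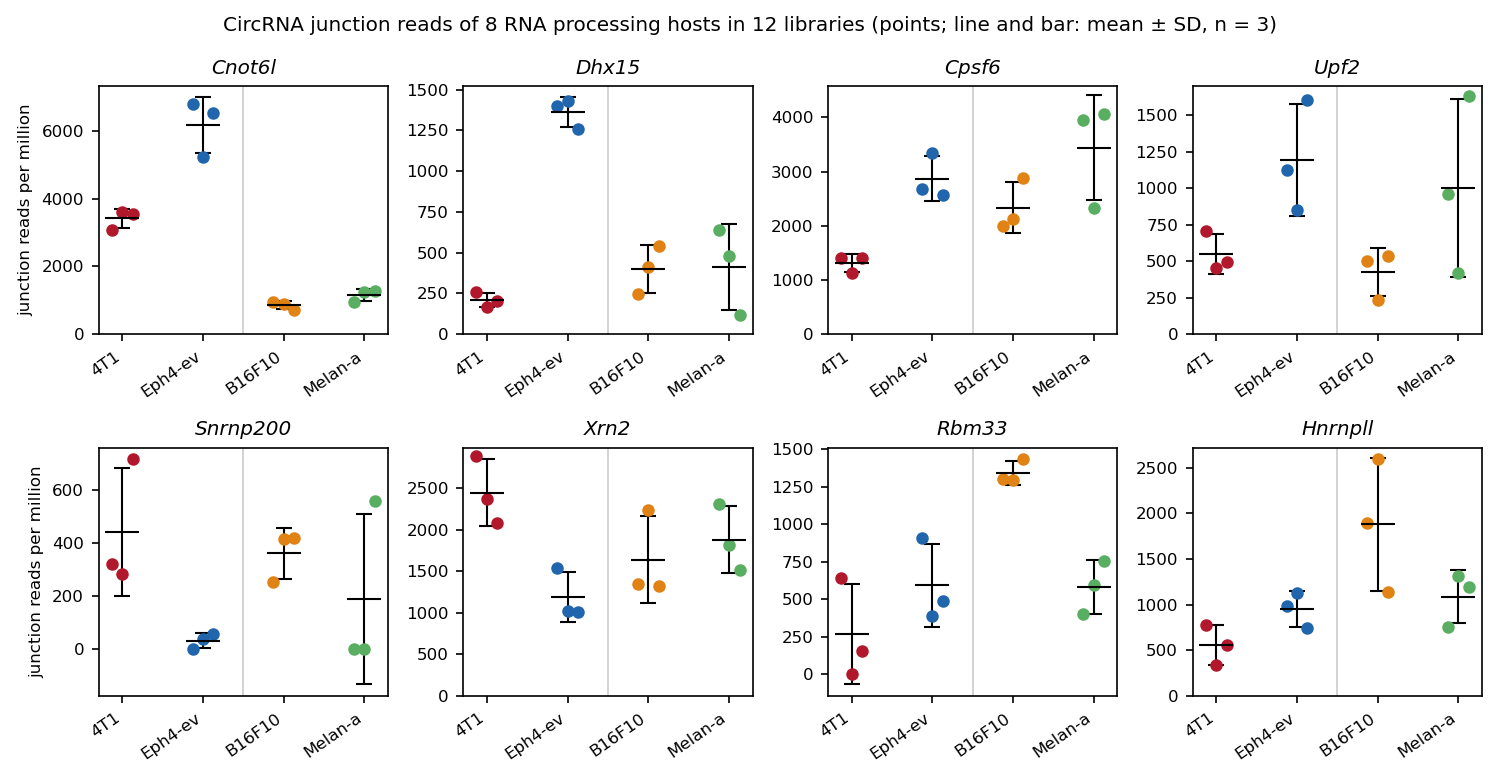
Level in RPM (y axis) of 8 hosts in the 3 libraries of 4T1, Eph4-ev, B16F10 and Melan-a (x axis); points are libraries, and the line and whiskers are the mean and SD. Dhx15 averages 209 RPM in 4T1 and 1364 RPM in Eph4-ev, and 401 RPM in B16F10 and 411 RPM in Melan-a.

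At the level of single circles, 31 circRNAs of these hosts were tested in the mammary lines, with 3 lower and 1 higher, or 9.68% and 3.23%, where 11.4% of all 1869 tested circRNAs were lower and 5.99% were higher. The 4 were those of Cnot6l (exons 2 to 4), Dhx15, Cpsf6 (exons 2 to 9) and Snrnp200. Circles of 2 hosts were read in every Eph4-ev library and in no 4T1 library: Ddx46, a helicase of the early spliceosome, had 8, 5 and 3 reads, and Prpf6, a protein of the tri-snRNP, had 8, 4 and 8. Against a floor of 3 reads over the 4T1 libraries these were at least 2.55-fold and 3.19-fold lower in 4T1. Neither had enough reads to be tested with edgeR, and both dropped out of the count when libraries were thinned to equal depth. Both, of 73 RNA processing hosts with reads, had at least 2 reads in each Eph4-ev library. Of all 3617 hosts, 3.51% met that criterion with 0 reads in 4T1. In the other direction 0 RNA processing hosts met it, where 0.719% of all hosts did.

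The number of different circles per host varied as well. Rbm27 and Upf2 gave 8 circRNAs each in the mammary lines and Cnot2 gave 7. Rbm27 circles had 10, 2 and 31 junction reads in 4T1, against 23, 18 and 15 in Eph4-ev, and did not pass the test (log2 0.40, SE 0.62, adjusted p = 0.722). Among the helicases Ddx10 and Dhx15 gave 6 each, and Ddx10 had 4, 6 and 13 junction reads in 4T1, against 0, 7 and 5 in Eph4-ev, which as RPM did not overlap but did not pass the test (log2 1.86, SE 0.98, adjusted p = 0.218). Hnrnpr, an hnRNP, gave 4 circRNAs with 3, 5 and 20 junction reads in 4T1, against 12, 16 and 5 in Eph4-ev (log2 0.53, SE 0.72, adjusted p = 0.675). Cpsf1, a subunit of the cleavage and polyadenylation factor, also gave 4, and Prpf8, the protein at the core of the spliceosome, gave 3, both with too few reads to be tested.

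Between the melanocytic lines no RNA processing host was called in B16F10 against Melan-a. Of 15 tested hosts, 0 were called by edgeR, where 2.78% of all 898 tested hosts were higher and 4.34% were lower, and 0 by DESeq2, which called 6.57% of all. An unadjusted p under 0.05 was reached by 3 of the 15 with edgeR and 1 with DESeq2, where 21.2% and 17.4% of all tested hosts reached it. The median log2 fold change of the 15 was -0.30, against -0.00 over all tested hosts. Nearest to the threshold was Rbm33, an RNA-binding protein, with 26, 22 and 24 junction reads in B16F10, against 10, 20 and 19 in Melan-a, or 1345 ± 80.0 RPM in B16F10, against 583 ± 179 RPM in Melan-a (SD, n = 3 each; log2 1.10, SE 0.36, adjusted p = 0.0830). A minimum count of 10 brought the adjusted p to 0.0488, but the other 12 of 13 alternative settings left it above the threshold. Leaving out 1 library gave 0.0642 to 0.238. Every B16F10 library was above every Melan-a library. Such a lack of overlap was common. Of the 15 hosts 2 lay wholly higher in B16F10, or 13.3%, where 16.3% of all tested hosts did. Wholly lower lay 1 of the 15, or 6.67%, where 12.9% of all tested hosts did.

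The hosts lower in 4T1 had these values in the melanocytic pair. Cpsf6, the most abundant host in both lines, had 40, 36 and 48 junction reads in B16F10, against 99, 78 and 102 in Melan-a (log2 -0.65, SE 0.28, adjusted p = 0.200), and Upf2 had 10, 4 and 9 junction reads in B16F10, against 24, 14 and 41 in Melan-a (log2 -1.29, SE 0.54, adjusted p = 0.183). Without Melan-a replicate 2 the adjusted p was 0.0257 for Cpsf6 and 0.0324 for Upf2, but neither passed in the other 12 of 13 alternative settings. With 1 library left out it reached up to 0.530 for Cpsf6 and 0.498 for Upf2. Cnot6l had 19, 15 and 12 junction reads in B16F10, against 24, 42 and 32 in Melan-a (log2 -0.54, SE 0.34, adjusted p = 0.391). Dhx15 had 5, 7 and 9 junction reads in B16F10, against 16, 16 and 3 in Melan-a, overlapping, with a log2 fold change of -0.15 (SE 0.63, adjusted p = 0.926). Of the hosts higher in 4T1, Xrn2 had 27, 38 and 22 junction reads in B16F10, against 58, 61 and 38 in Melan-a (log2 -0.30, SE 0.31, adjusted p = 0.666), and Snrnp200 had 5, 7 and 7 junction reads in B16F10, against 0, 0 and 14 in Melan-a (log2 0.90, SE 1.11, adjusted p = 0.727).

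**Figure D3:**
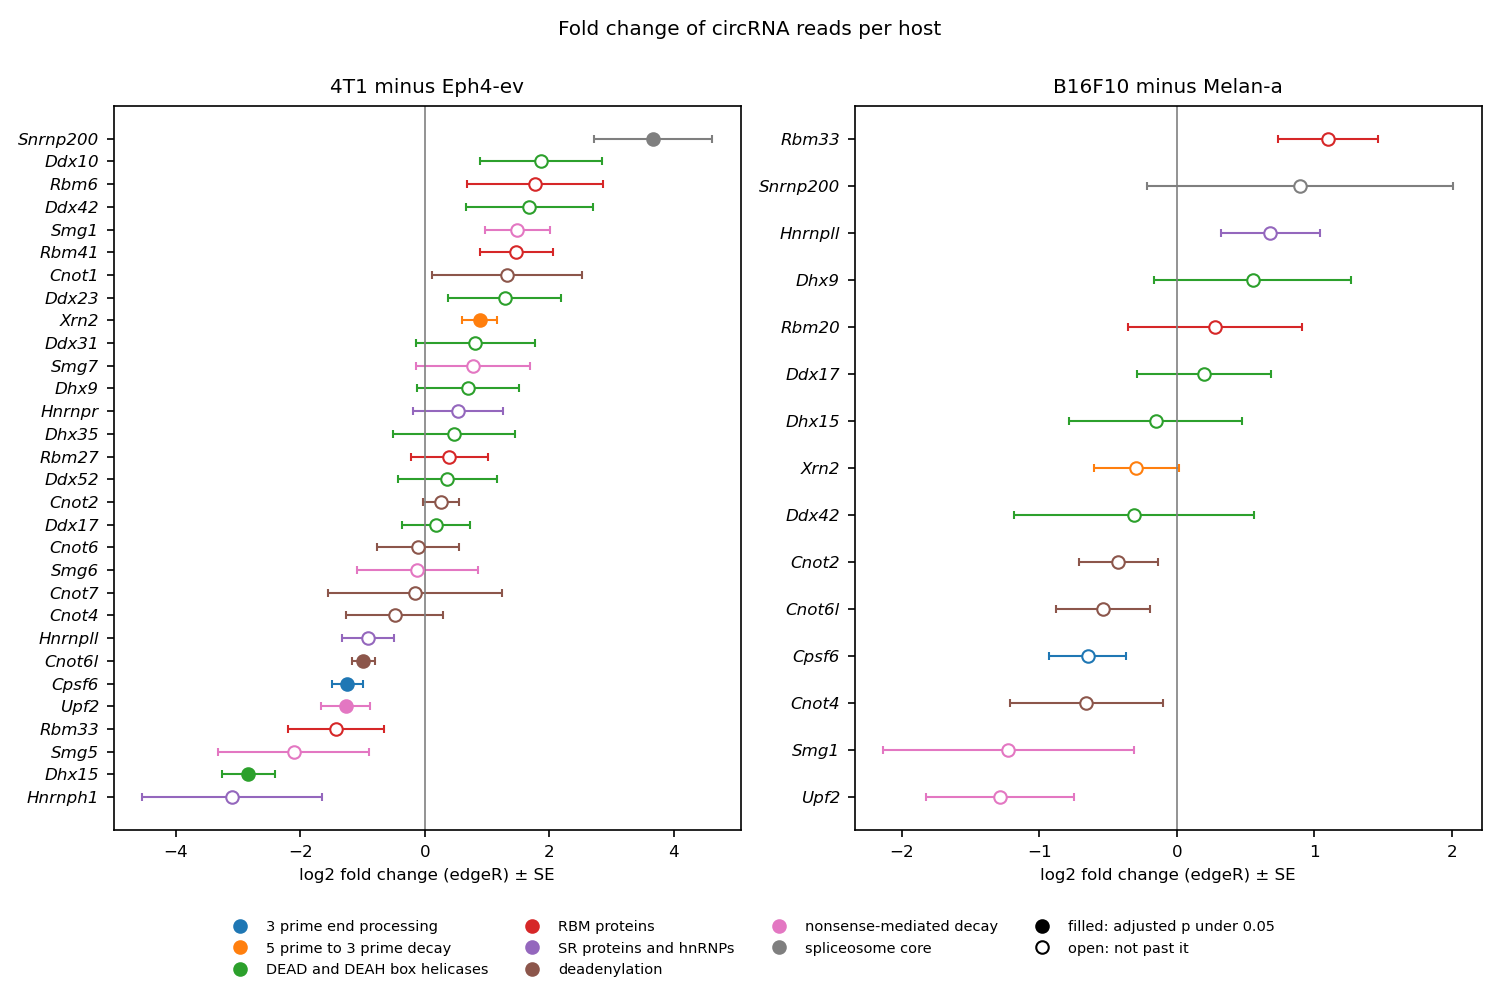
Log2 fold change with SE (x axis, edgeR) of the 30 hosts tested in 4T1 minus Eph4-ev (left) and the 15 tested in B16F10 minus Melan-a (right), coloured by role. Filled points passed an adjusted p under 0.05: 2 higher and 4 lower on the left and 0 on the right.

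Single circles of the melanocytic pair changed in 1 case: of 13 tested, 1 was lower and 0 were higher in B16F10, where 5.84% of all 874 tested circRNAs were lower and 5.03% were higher. By edgeR an unadjusted p under 0.05 was reached by 3 of the 13 in the lower and 0 in the higher direction, where 12.2% and 11.6% of all tested circRNAs reached it. DESeq2 called 0 in either direction, where it called 7.67% of all, and gave 2 of the 13 an unadjusted p under 0.05. The 1 lower was the Cpsf6 circle of exons 2 to 3 (chr10:117366081-117367988), with 3, 6 and 6 junction reads in B16F10, against 32, 17 and 31 in Melan-a (log2 -1.85, SE 0.52, adjusted p = 0.0346). DESeq2 gave 0.0737, and leaving out any single library but Melan-a replicate 2 gave 0.0847 to 0.181. The longer Cpsf6 circle of exons 2 to 9 had 35, 30 and 37 junction reads in B16F10, against 61, 61 and 63 in Melan-a (log2 -0.30, SE 0.28, adjusted p = 0.582). The longer circle thus held 82.6% ± 5.24 of the Cpsf6 reads in B16F10, against 67.2% ± 9.54 in Melan-a, and 40.7% ± 18.3 in 4T1, against 65.9% ± 15.1 in Eph4-ev (SD, n = 3 each; exact permutation p = 0.2 in each pair). The 2 pairs of lines thus lay in opposite directions, a difference that was not tested. For Cnot2 the direction was shared: the circle of exons 2 to 4 held 77.3% ± 1.98 of its reads in B16F10, against 54.8% ± 2.31 in Melan-a (SD, n = 3 each), with no overlap (exact permutation p = 0.1, the smallest possible, and 0.257 adjusted). The shorter Cnot2 circle of exons 2 to 3 had 7, 2 and 4 junction reads in B16F10, against 18, 18 and 23 in Melan-a (log2 -1.62, SE 0.53, adjusted p = 0.0630).

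**Figure D4:**
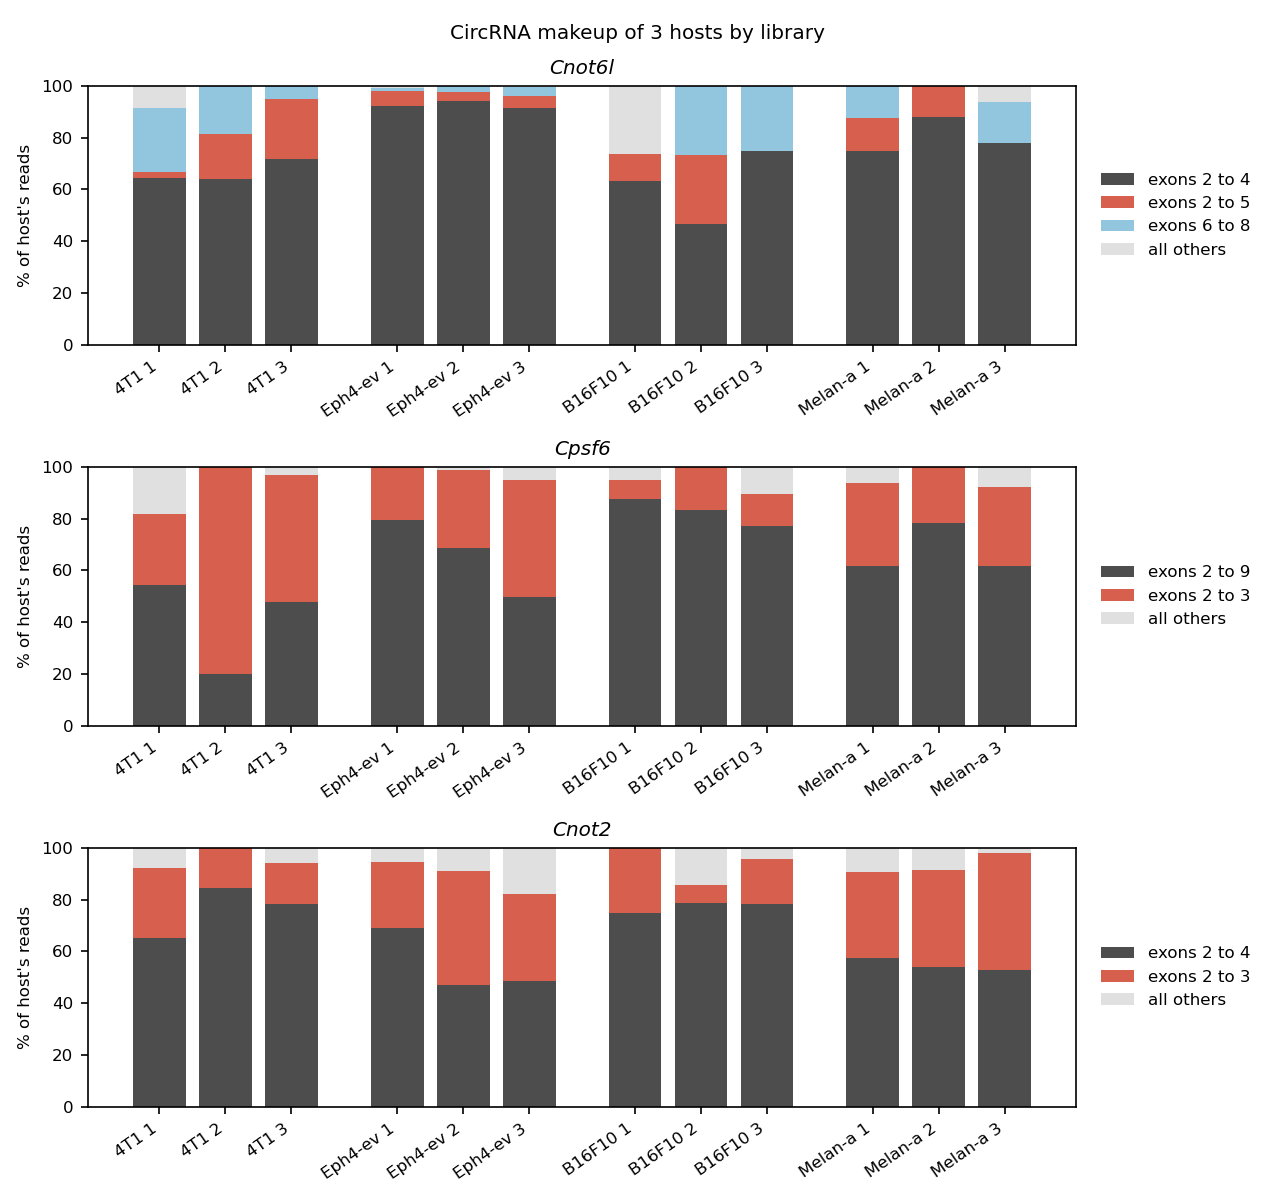
Makeup (% of the host's reads, y axis) of the circles of Cnot6l, Cpsf6 and Cnot2 in each of the 12 libraries (x axis), by the exons that the circle holds. The Cnot6l circle of exons 2 to 4 takes 64.1% to 71.7% in 4T1 and 91.4% to 94.3% in Eph4-ev.

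Whether the mammary and the melanocytic difference themselves differed was tested as an interaction in 1 fit to the 12 libraries, restricted to circles listed for both lineages. Of 24 tested RNA processing hosts 2 passed, or 8.33%, where 11.7% of all 1204 tested hosts did. Rbm33 had 10, 0 and 7 junction reads in 4T1, against 46, 22 and 27 in Eph4-ev, and 21, 21 and 24 junction reads in B16F10, against 9, 19 and 19 in Melan-a over these circRNAs. Its difference of log2 fold changes, mammary minus melanocytic, was -2.58 (SE 0.84, adjusted p = 0.0453). Its circle of exons 8 to 10 (chr5:28358274-28368313) had 0 reads in each 4T1 library, against 17, 0 and 21 in Eph4-ev, and 9, 18 and 18 in B16F10, against 8, 14 and 18 in Melan-a. The circle of exons 8 to 9 had 2, 0 and 0 reads in 4T1, against 19, 10 and 6 in Eph4-ev, and 3, 0 and 0 in B16F10, against 0 in each Melan-a library. Hnrnpll, an hnRNP that regulates alternative splicing, gave 1 circle (chr17:80044494-80053641), with 12, 6 and 25 junction reads in 4T1, against 50, 64 and 41 in Eph4-ev, and 38, 44 and 19 junction reads in B16F10, against 19, 44 and 30 in Melan-a. Its difference was -1.69 (SE 0.55, adjusted p = 0.0453). In neither lineage did either host pass the test alone. With RLE factors the adjusted p was 0.0538 for Rbm33 and 0.0568 for Hnrnpll, and leaving out single libraries gave 0.00407 to 0.154 and 0.0246 to 0.185. The difference for Dhx15, the steepest fall among the called hosts in the mammary pair, was -2.42 (SE 0.84) with an adjusted p of 0.0620.

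Other genes of RNA processing were taken as a list of 120 that the family names do not cover. It held genes of splicing, poly(A) tails, decay, the miRNA pathway, RNA methylation, RNA editing and capping, among others. CircRNA reads were found for 69 of the 120 in the mammary table. Of 33 tested, 5 were higher in 4T1, or 15.2%, and 2 lower, or 6.06%, where 6.86% of all tested hosts were higher and 10.6% lower. Qk, an RNA-binding protein that regulates splicing, had 36, 69 and 114 junction reads in 4T1, against 25, 18 and 23 in Eph4-ev (log2 2.68, SE 0.32, adjusted p = 3.12e-05). Ptbp3, a polypyrimidine tract binding protein, had 11, 32 and 41 junction reads in 4T1, against 402, 511 and 505 in Eph4-ev (log2 -3.09, SE 0.26, adjusted p = 5.19e-07). Both calls held with any single library left out, with adjusted p up to 0.00737 for Qk and 0.00206 for Ptbp3. Calls of the others did not: Sf3b3, a subunit of the U2 snRNP, was higher in 4T1 (log2 1.63, SE 0.39, adjusted p = 0.0104) but not without 4T1 replicate 3 or Eph4-ev replicate 1 or 2 (up to 0.0919). Cstf3, a subunit of the cleavage stimulation factor, was higher (log2 1.60, SE 0.41, adjusted p = 0.0151) but not without 4T1 replicate 3 or any of the Eph4-ev replicates (up to 0.127). Ago2, higher, and Luc7l2, lower, each lost the call in 5 of the 6 cases, all but that without 4T1 replicate 2 for Ago2 and without 4T1 replicate 1 for Luc7l2. Among the melanocytic lines 56 had reads and 16 were tested, of which 1 was lower, Rngtt, or 6.25%, where 4.34% of all tested hosts were lower, and 0 were higher, where 2.78% of all were. The median log2 fold change of the tested list was 0.20 in the mammary pair, against -0.09 over all hosts, and -0.02 in the melanocytic pair, against -0.00.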

How the data were processed

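Junction reads of circRNAs were deposited for 12 libraries of 4 mouse lines, 3 each, in 1 table per lineage. Per the labels' protocols, circRNAs of RNase R-treated RNA were called by CIRI2 (from BWA-MEM) and by CIRCexplorer2 (from TopHat and TopHat-Fusion). The build is mm10 and DESeq, DESeq2 and edgeR are named without a role, per the submitters' processing notes. The way the 2 callers were combined, and the annotation, are not stated in these sources. The deposited counts are raw junction reads, and the deposited RPM columns, per the file headers, hold reads scaled by the column total. RPM times that total was whole within 0.01 for 100% of values, so counts were tested throughout. Nothing says whether libraries came from separate cultures, so p-values measure the spread between libraries, which may be technical. No molecular identifiers are mentioned, so intervals and floors cover counting error only.

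Counts were summed per host over rows with 1 host. Rows with several hosts (160 in the mammary, 201 in the melanocytic table; 9 and 8 with an RNA processing gene) were left out, and dates stood in place of host symbols in 3 rows of the mammary and 18 of the melanocytic table, none of a host described. Each lineage was tested with edgeR 4.0.16, using its quasi-likelihood test on TMM-scaled libraries after filterByExpr (at least 5 counts, at least 10 in total), with p-values adjusted by Benjamini-Hochberg over all features, in R 4.3.3, with log2 fold changes of the tumour line minus the non-tumour line and an SE from the F statistic. Lineages were compared by interaction, on 8928 circRNAs both tables list. The fits were also run on simulated data with an equal spread for all features. Changes were set there only in well-read features, so hosts with few reads were not covered. Alternatives were scaling (RLE, or total reads alone), filtering (none, or at least 10 counts), DESeq2 1.42.0, a replicate block, thinning to equal depth, and leaving out each library. Shares were compared by exact two-sided permutation (scipy 1.17.1). Exons are those of GENCODE M21; introns are the ones flanking each circle. Rule for named hosts: those called or with a called circle, the 5 most abundant per line, those of 1 line only, those with an interaction, and the host with most circles per role; Ddx17, Dhx9, Rbm26 and the tested deadenylation hosts outside it were named after their values were seen. The hosts, the role groups and the lists were chosen with earlier results of these data known.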

Additional observations from a re-analysis of the deposited data

Results flagged for a closer look

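The fold changes of 2 hosts differed between the lineages by a test of the difference itself, and the value that drew attention is that difference. For Rbm33 it was -2.58 on the log2 scale (SE 0.84, edgeR adjusted p = 0.0453), while separate fits of each lineage over all its circles gave a log2 fold change of -1.43 in 4T1 against Eph4-ev and 1.10 in B16F10 against Melan-a. For Hnrnpll it was -1.69 (SE 0.55, adjusted p = 0.0453), while the separate fits gave -0.91 in 4T1 against Eph4-ev and 0.68 in B16F10 against Melan-a. The differences come from 1 fit to the circles both tables list, so they need not equal the gap between the separate fits. Both sat just under the threshold. The share of hosts of this kind past it (8.33%) was below that of all tested hosts (11.7%), and with replicate number as a block the adjusted p was 0.0642 and 0.0746.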

How the results depend on the processing

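Of the 4 hosts called lower and 2 called higher in 4T1, Dhx15, Cnot6l and Cpsf6 held in all alternatives. Hosts higher in 4T1 numbered 1 with no filter and 1 with DESeq2, and 0 to 1 without a single library. Hosts lower in 4T1 numbered 3 to 6 without a single library. CircRNAs higher in 4T1 numbered 2 with total reads alone, 2 with a minimum count of 10, 2 after thinning and 0 to 3 without a single library (0 without 4T1 replicate 3 or any Eph4-ev replicate, 3 without 4T1 replicate 2), and circRNAs lower numbered 2 to 4. In the melanocytic pair, hosts higher numbered 1 with a minimum count of 10, and hosts lower 0 to 2 without a single library. CircRNAs lower numbered 0 with no filter, 0 with DESeq2, 2 with a minimum count of 10, 2 after thinning, and 0 to 2 without a single library. Interactions numbered 0 with RLE factors, 0 with total reads alone and 0 to 4 without a single library (0 without 4T1 replicate 2 or 3, Eph4-ev replicate 1 or 2 or B16F10 replicate 2; 4 without Melan-a replicate 2). Counting rows of several hosts raised the shares to 2.76% in 4T1, 2.71% in Eph4-ev, 1.83% in B16F10 and 1.80% in Melan-a, which turned the order of the lines in both pairs. Hosts read only in Eph4-ev numbered 0 with a minimum of 5 reads, 0 after thinning and 2 to 5 without a single library, and those only in B16F10 0 to 1. Leaving out libraries for these line-only counts was chosen after seeing the data. Same-numbered libraries did not deviate together (correlations of -0.0810 to 0.0203 between lines). With the replicate block, interactions numbered 0, 4 hosts were lower and 2 higher in 4T1, and no other count changed by over 1.5 times. Causes were not tested. Scaling by total reads put the median of all tested hosts at 0.04 in the mammary pair (-0.09 with TMM) and 0.11 in the melanocytic pair (-0.00 with TMM). Read numbers limit all of this: most hosts had too few reads to test.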
